A study of Mus musculus with 6 samples.

Results

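Among the CD45+-enriched cells of CT26 tumors, 251 of the 2680 cells that carry the label Myeloid held 10 or more UMIs of *Mcpt4*, the gene of a chymase stored in mast cell granules. A UMI, or unique molecular identifier, counts each captured transcript once. These 251 cells, out of 33961 in all, were chosen by their *Mcpt4* count within the deposited label, and the other 2429 Myeloid cells are the group they are set against. Since a measured transcript chose them, every expression value of these cells is given as a description without a test. No mast cell label exists among the 12 labels of the series. Every one of the 251 cells also carried UMIs of the chymase *Cma1* and of the mast cell carboxypeptidase *Cpa3*, and 182 carried *Kit*, so they are called mast cell-like below.

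Mast cells mature in tissues from bone marrow progenitors under stem cell factor, which signals through KIT. Their granules hold chymases, tryptases and carboxypeptidase A3 bound to heparin on serglycin, together with histamine and, in rodents, serotonin. Cross-linking of IgE on the high-affinity receptor FcεRI, or ligands of MRGPRB2, the mouse counterpart of human MRGPRX2, releases these stores. Connective tissue-type mast cells of the mouse are known for *Mcpt4*, *Cma1*, *Tpsb2* and *Cpa3*, and mucosal-type cells for *Mcpt1* and *Mcpt2*.

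The tumors were grown from CT26, a colon carcinoma line, in female Balb/c mice that were 5 to 6 weeks old when obtained, and were taken 5 days after treatment. The sample labels list 6 samples of tumor-infiltrating lymphocytes, with 2 replicates for vehicle, 2 for the low dose and 2 for the high dose of a bispecific antibody that joins a PD-1 binder to GITR-L. The labels give the high dose as 30 mg/kg, while for the low dose the protocol field has 10 mg/kg and the treatment field has 30 mg/kg. The study's own text names an isotype control and a dose that matches neither field. The table names its 4 libraries M1, M2, M5 and M6, and none of these names matches a sample label, so each library is reported on its own and no treatment groups were compared. CD45 enrichment by beads means that the shares below are shares of the enriched cells.

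The 251 cells held a median of 4516 UMIs and 1460 genes per cell (UMI range 1866 to 92027), and the other Myeloid cells a median of 8686 UMIs and 2487 genes. Summed over cells, the mast cell-like cells held 1566973 UMIs and the other Myeloid cells 36429265, so that 1 UMI among the former is worth 0.638 CPM (CPM, a gene's UMIs relative to the group total). Mitochondrial genes took 7.2% to 9.0% of UMIs in the mast cell-like cells of the 4 libraries and 4.87% to 5.44% in the other Myeloid cells, and 96 of the 251 cells were over 10%. Ribosomal protein genes took 20.9% and 15.3%. Of the 251 cells, 6 exceeded 20000 UMIs. These 6 held 14.1% of the UMIs, 3.74% of the *Mcpt4* UMIs and 53.6% of the *Lyz2* UMIs of the group. None of the 251 barcodes occurred in a second library, while 111 barcodes of the whole table did.

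To show the DNA in front of the genes that mark these cells, the 250 bases before the start of *Mcpt4*, *Cma1*, *Cpa3* and *Mrgprb2* are printed 5′ to 3′ from RefSeq on GRCm38.p6. Capitals mark the 6-base GATA motif (GATAA or GATAG with an A or a T before it, on either strand). GATA2 is a transcription factor that mast cells need.
*Mcpt4* promoter (chr14:56062311-56062560, minus strand): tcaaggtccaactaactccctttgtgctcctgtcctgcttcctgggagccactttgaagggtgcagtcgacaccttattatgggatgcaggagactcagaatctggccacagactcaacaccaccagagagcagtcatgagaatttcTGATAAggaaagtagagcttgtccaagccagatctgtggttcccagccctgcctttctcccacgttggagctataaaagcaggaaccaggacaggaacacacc
*Cma1* promoter (chr14:55944676-55944925, minus strand): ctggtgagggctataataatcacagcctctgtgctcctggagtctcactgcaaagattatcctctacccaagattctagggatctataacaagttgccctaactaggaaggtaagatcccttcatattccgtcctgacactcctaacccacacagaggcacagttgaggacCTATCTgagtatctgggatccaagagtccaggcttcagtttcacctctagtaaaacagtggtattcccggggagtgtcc
*Cpa3* promoter (chr3:20242182-20242431, minus strand): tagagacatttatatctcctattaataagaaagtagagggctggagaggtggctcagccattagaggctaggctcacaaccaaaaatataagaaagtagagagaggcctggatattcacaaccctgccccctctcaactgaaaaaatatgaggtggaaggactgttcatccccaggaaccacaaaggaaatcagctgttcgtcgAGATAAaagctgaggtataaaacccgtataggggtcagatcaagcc
*Mrgprb2* promoter (chr7:48558087-48558336, minus strand): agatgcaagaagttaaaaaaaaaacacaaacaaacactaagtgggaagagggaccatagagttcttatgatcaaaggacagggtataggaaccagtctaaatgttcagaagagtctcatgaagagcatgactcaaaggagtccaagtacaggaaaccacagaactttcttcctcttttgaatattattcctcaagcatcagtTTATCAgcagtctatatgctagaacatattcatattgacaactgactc
In these windows the motif lies 103 bases before the start of *Mcpt4*, 79 before *Cma1*, 46 before *Cpa3* and 48 before *Mrgprb2*. Of the 21 genes formed by the 20 with the highest ratio and *Kit*, 16 had a RefSeq promoter, with 20 windows in all, since some have several starts. The motif was in 11 of these 20 windows, against 26.5% of all 32851 promoter windows. All of these genes but *Kit* were picked by their ratio in these same data, which the selection fixed for *Mcpt4*. The share is thus a description of the picked genes, and enrichment was not tested. The windows of *Kit*, *Hs6st2*, *Gnai1*, *Speer4e* and *4932438H23Rik* held none. The reference is C57BL/6J, the mice were Balb/c, and a match is a run of letters, not a measured site. *Tpsb2*, *Tpsab1*, *Mcpt2*, *Serpinb1a* and *Car8* had no entry among the promoter sequences at hand, so their promoters were not read.

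*Mcpt4* (chromosome 14 of GRCm38, 56059629 to 56062313, minus strand) divided the Myeloid label unevenly. It was at 0 UMIs in 2360 cells, at 1 in 37 and at 2 to 9 in 32, while 39 cells had 10 to 19 UMIs, 51 had 20 to 49, 89 had 50 to 99 and 72 had 100 or more. The median among the selected cells was 63 UMIs and the highest value 462. At the limit the division was not sharp. The 18 cells with 7 to 9 *Mcpt4* UMIs had a median depth of 5757 UMIs. All 18 carried *Cma1* (median 24 UMIs) and *Tpsb2* (median 13.5), 17 carried *Cpa3* (median 5), and 10 of them carried *Lyz2*, a macrophage gene. The 11 cells with 10 to 12 UMIs had a median depth of 3373 UMIs and medians of 30 *Cma1*, 14 *Tpsb2* and 8 *Cpa3* UMIs, all 11 carried *Cpa3*, and 3 of them carried *Lyz2*. *Cma1*, *Tpsb2* and *Cpa3* were thus seen on both sides of the limit, and the cells just under it were deeper.

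**Figure D1:**
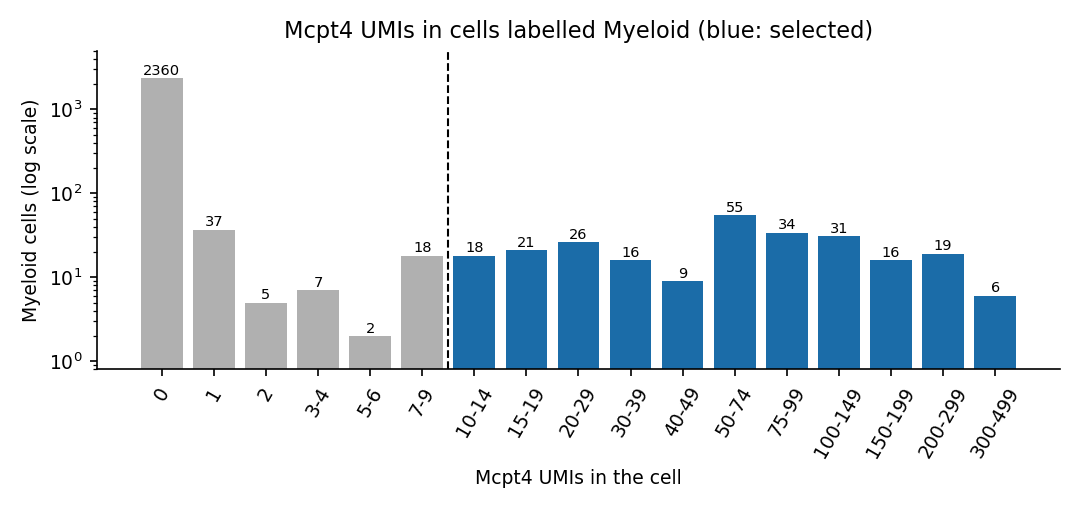
Number of Myeloid cells (log scale) by the *Mcpt4* UMIs of the cell, in bins of unequal width, with the selected cells in blue right of the dashed line at 10 UMIs. Most cells are at 0 (2360 cells), few lie between 2 and 9, and the selected cells spread from 10 to 462.

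Mast cell-like cells were found in each library. They were 61 of 579 Myeloid cells in M1 (10.5%, exact binomial 95% interval 8.16% to 13.3%), 53 of 595 in M2 (8.91%, 6.74% to 11.5%), 72 of 676 in M5 (10.7%, 8.43% to 13.2%) and 65 of 830 in M6 (7.83%, 6.10% to 9.87%). These intervals cover counting error only, and for the share of Myeloid cells they overlap for all 4 libraries. Of all cells, the shares in the same order were 0.593% (0.454% to 0.761%), 0.593% (0.444% to 0.775%), 1.01% (0.788% to 1.26%) and 0.859% (0.664% to 1.09%), and here the interval of M5 lies above those of M1 and M2. This total holds the cells labelled Stroma. Under the *Mcpt4* limit these were 6298 of 10294 cells in M1 and 5103 of 8940 in M2. They were 1945 of 7160 in M5 and 2338 of 7567 in M6. Their part in the higher share of M5 was not tested. Of the UMIs of a selected cell, *Mcpt4*, *Cma1*, *Cpa3*, *Tpsb2* and *Tpsab1* together took a median of 6.60%, between 0.480% and 27.1%, and the library medians lay between 6.08% and 7.80%. In the other Myeloid cells the median was 0.

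**Figure D2:**
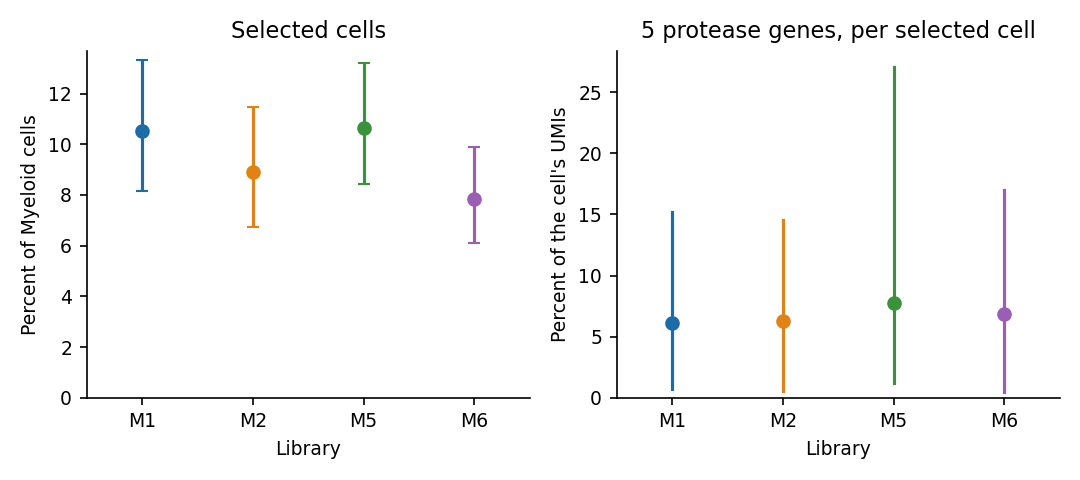
Left, percent of Myeloid cells that were selected in each library, with exact 95% binomial intervals. Right, percent of each selected cell's UMIs in 5 protease genes, with the median as a point and the lowest to highest cell as a line. The shares lie between 7.83% and 10.7% with overlapping intervals, and the protease medians between 6.08% and 7.80%.

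Over the 11726 genes with at least 50 UMIs in both groups together, 432 (3.68%) were 2-fold or more higher in the mast cell-like cells and above the other Myeloid cells in each of the 4 libraries, and 2379 (20.3%) were 2-fold or more lower and below in each. Ratios are log2 of CPM with 1 CPM added to both sides. The median over all tested genes was -0.35, and after centring on it the counts were 825 higher and 1486 lower. A gene with 50 UMIs and equal CPM in both groups would have about 2.15 UMIs in the mast cell-like cells, so the call of a rare gene as lower rests on few UMIs. A gene rare in the other Myeloid cells could pass the minimum only through high counts in the mast cell-like cells. Such a gene is high because of how it entered. Without the minimum, 504 genes were higher and 2500 lower. All lists below are read against this background and none is tested.

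Leaving out *Mcpt4*, whose call the selection fixed, 8 of 10 granule protease genes above the minimum were called higher and none lower, with a median log2 ratio of 6.75, where 3.68% of all genes were called higher. Of the 8, *Mcpt2* (1171 UMIs, and 16 in the other Myeloid cells) and *Tpsg1* (87 and 13) passed the minimum only through the group in which they are high. *Mcpt4* itself had 9568, 12577, 18863 and 16112 CPM in M1, M2, M5 and M6, and 3.80 to 8.78 CPM in the other Myeloid cells. *Cma1* (chromosome 14, 55941451 to 55944675) had 13863, 19198, 26202 and 23109 CPM in M1, M2, M5 and M6 and 15.2 to 152 CPM in the other Myeloid cells. Both chymases were lowest in M1 and highest in M5 among the mast cell-like cells. *Cpa3* (chromosome 3, 20215620 to 20242181), whose carboxypeptidase trims peptides and venoms, had 5783, 4711, 6524 and 5648 CPM, against 0.985 to 56.6 CPM. For these genes the lowest library of the mast cell-like cells lay far above the highest library of the other Myeloid cells. After thinning each cell to 2000 UMIs, which left out 6 selected, 127 other Myeloid and 180 NK cells, 98.4% of selected cells kept a *Cpa3* UMI, against 1.78% of the other Myeloid cells and 0.569% of NK cells, a label that should lack it. Without thinning these shares were 100% and 2.68% in the selected and other Myeloid cells.

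The tryptases lie side by side on chromosome 17 of GRCm38. *Tpsab1* (25343245 to 25345562, minus strand) had 11137, 10687, 12322 and 10870 CPM in M1, M2, M5 and M6, with no library far from the others, and 7.46 to 26.7 CPM in the other Myeloid cells. *Tpsb2* (25366305 to 25369098, plus strand) had 6339, 7723, 9097 and 7916 CPM, against 5.21 to 27.0. *Tpsg1* (25369273 to 25374442), the membrane-anchored tryptase, had 38.1 to 75.4 CPM and no more than 0.573 in the other Myeloid cells. The 3 genes were thus all higher in each library, and 248 of the 251 cells carried *Tpsb2* and 248 *Tpsab1*, while *Tpsg1* was seen in 67.

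Around *Mcpt4*, 15 protein-coding genes of the chymase and granzyme locus run over 321 kb of chromosome 14. In 5 of them the mast cell-like cells were over 10-fold higher in each library. These were *Cma1*, *Cma2*, *Mcpt2*, *Mcpt4* and *Ctsg*, all in the first part of the locus. For *Mcpt4* the selection fixed this result. *Mcpt2* (1171 UMIs, and 16 in the other Myeloid cells) passed the UMI minimum only through the group in which it is high. *Cma2* (44 and 3 UMIs) was under that minimum, and had 0 CPM in the other Myeloid cells of M2. The share of all genes over this 10-fold limit is not given, so the count is a description. *Mcpt2*, a mucosal-type chymase, had 1435, 1105, 142 and 155 CPM in the same order of libraries, and under 2 CPM in the other Myeloid cells. It was carried by 28 of 61 cells in M1, 15 of 53 in M2, 13 of 72 in M5 and 18 of 65 in M6, and 10 cells held 66.5% of its UMIs. *Mcpt1*, the other mucosal-type chymase, was seen in 9 cells with 45 UMIs, 34 of them in 1 cell, and 5 of the 9 cells also carried *Mcpt2*. *Mcpt9* was at 0 UMIs, which allows up to 1.91 CPM. *Ctsg*, the gene of cathepsin G, was carried by 152 cells and had 289, 349, 664 and 484 CPM in M1, M2, M5 and M6, against 0.871 to 18.7 CPM. *Mcpt8*, a basophil protease gene that lies between *Mcpt4* and *Ctsg*, was seen in 8 cells. Of the 7 tested genes of the basophil list, 3 were called higher (*Fcer1a*, *Cd200r3* and *Itga2*, all also on the mast cell receptor list) and 3 lower (*Cebpa*, *Gpr141* and *Ltf*), with a median of 1.41, where 3.68% and 20.3% of all genes were called. The median was -0.33 with 2 of 7 higher in the 106 cells without UMIs of other cell types' genes, where 457 of all genes were called higher. Summed over the list, the level was 1237 to 2118 CPM by library, of which *Fcer1a* made up 1005 to 1735, against 107 to 145 CPM in the other Myeloid cells. *Mcpt8* was not called (2.38 to 84.1 CPM against 0.282 to 22.7), and *Prss34*, a basophil protease gene under the minimum, had 10 UMIs in 3 cells. Past *Ctsg*, the granzymes were closer to the other Myeloid cells. *Gzmb* had 725 to 1938 CPM in the mast cell-like cells and 479 to 900 in the other Myeloid cells, so that the libraries overlap, with a log2 ratio of 0.97. Within each library *Gzmb* was higher in the mast cell-like cells. Over the settings tried, its ratio ran from 0.34 to 1.44. The lowest was in the 106 cells without UMIs of other cell types' genes, chosen to lack CD3 chain and *Ncr1* UMIs. The highest was as a mean of per-cell CPM. It was 0.77 without M5 and 1.35 after thinning. NK cells, which use these granzymes to kill, had 4955 CPM. Of the *Gzmc* UMIs, 85.5% came from 10 cells. The part of killer cell RNA in these granzyme levels was not tested.

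**Figure D3:**
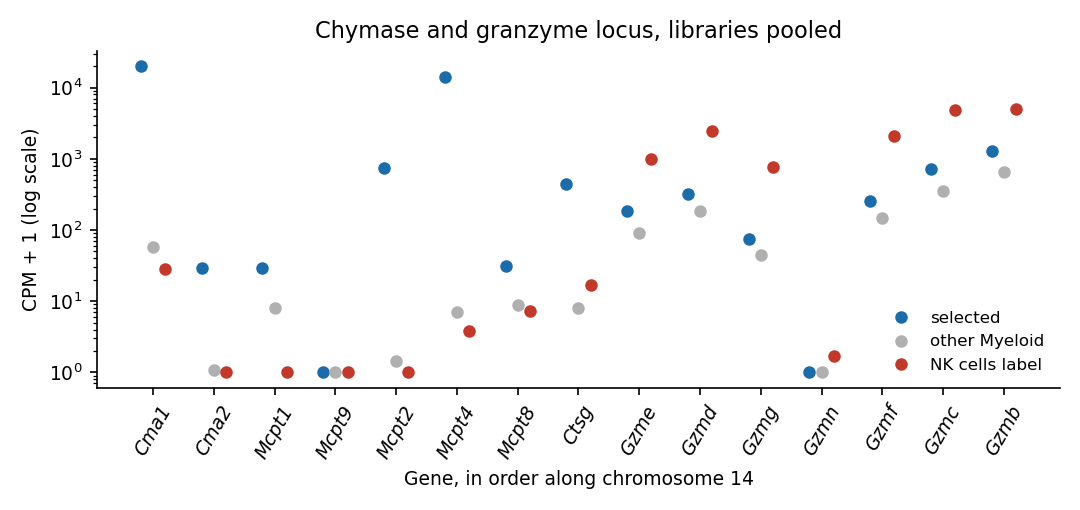
Level (CPM + 1, log scale, libraries pooled) of the 15 protein-coding genes of the chymase and granzyme locus in their order along chromosome 14, in mast cell-like cells (blue), other Myeloid cells (grey) and cells labelled NK cells (red). The mast cell-like cells are highest for *Cma1* through *Ctsg*, except *Mcpt9* at 0, and NK cells are highest for the granzymes.

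Genes of granule amines and of the heparin that packs the proteases were next. Of 12 tested, 6 were called higher and none lower (median 2.31), where 3.68% and 20.3% of all genes were. Of the 6, *Maob* and *Slc6a4* passed the minimum only through the group in which they are high. They had 146 and 130 UMIs there, and 35 and 28 in the other Myeloid cells. After centring on the median of all genes, 10 of the 12 were called higher and none lower. *Hdc*, the enzyme that makes histamine, had 1204, 1754, 1714 and 1468 CPM in M1, M2, M5 and M6, against 74.8 to 161 CPM, and was carried by 237 cells. The groups do not overlap, although *Hdc* was also present in the other Myeloid cells (17% of them after thinning, against 83.3%). *Tph1*, the rate-limiting enzyme of serotonin synthesis outside the brain, had 551, 865, 1157 and 1444 CPM, against 1.13 to 4.67, and was carried by 224 cells. *Slc18a2*, which loads amines into granules, had 89.2 to 136 CPM (log2 ratio 5.39), and *Slc6a4*, the serotonin uptake transporter, 71.5 to 102 (5.57). *Maob*, a monoamine oxidase, had 78.6 to 105 CPM (5.59). Of the enzymes that sulfate heparan chains, *Hs3st1* was at 6.05 and *Hs6st2* at 6.75 on the log2 scale, while *Ndst1* was at -0.03, *Ndst2* at 0.84 and *Hs6st1* at 0.89. *Srgn*, the serglycin core protein, was abundant in both groups, with 4056 and 2486 CPM.

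Receptors were mixed. Of 24 tested, 14 were called higher and 2 lower, *Ptger4* and *Il4ra* (median 1.72), where 3.68% and 20.3% of all genes were. Of the 14, *Mrgprb2*, *Mrgprx2* and *Ptger3* passed the minimum only through the group in which they are high. They had 373, 119 and 44 UMIs there, and 26, 18 and 19 in the other Myeloid cells. *Kit* (chromosome 5, 75574916 to 75656722), the receptor of stem cell factor and one of the genes used to name the cells, had 182, 248, 371 and 279 CPM in M1, M2, M5 and M6, against 9.29 to 20.5 CPM, and the groups do not overlap. Its UMIs are few, so that after thinning 43.7% of selected cells carried one, against 2.74% of the other Myeloid cells and 3.65% of NK cells. Of the FcεRI subunits, the α chain gene *Fcer1a* had 1005, 1335, 1735 and 1439 CPM, against 1.27 to 7.4. The β chain gene *Ms4a2* had 295, 464, 525 and 436 CPM, against 0.422 to 4.77. The γ chain gene *Fcer1g*, which other Fc receptors share, had 1794 to 2689 CPM in the mast cell-like cells and 1890 to 2244 in the other Myeloid cells, and these ranges overlap. Of the receptor's 3 chains, the mast cell and basophil chains were thus the ones that set the groups apart.

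The receptors for basic secretagogues followed the same pattern. *Mrgprb2* had 173, 303, 299 and 224 CPM in M1, M2, M5 and M6 and less than 1 CPM in the other Myeloid cells, and *Mrgprb1*, its neighbor on chromosome 7, had 444 to 635 CPM against 0.422 to 2.38. *Il1rl1*, the receptor of the alarmin IL-33, had 506 to 627 CPM and 44.5 to 72.2 in the other Myeloid cells. *Cd200r3*, an activating receptor of mast cells and basophils, was at 5.69 on the log2 scale, *Adora3*, an adenosine receptor, at 4.04 and *Cd63*, a granule membrane tetraspanin used to follow degranulation, at 1.86. The 2 receptors of the list that were lower were *Ptger4*, a prostaglandin E2 receptor (-1.62), and *Il4ra* (-1.41).

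Of 23 genes of IgE signaling and granule release, 5 were called higher and 4 lower (median -0.34, close to the -0.35 of all genes). Of all genes, 3.68% were called higher and 20.3% lower. The adaptors *Lat2* (log2 ratio 2.57) and *Lat* (2.61), the phospholipase *Plcg1* (1.1), *Rgs13*, a regulator of G protein signaling (6.60), and *Rab27b*, a small GTPase of granule movement (4.39), were higher. *Rgs13*, with 171 UMIs and 5 in the other Myeloid cells, passed the minimum only through the group in which it is high. *Syk* (-2.52), the kinase that FcεRI uses, *Plcg2* (-2.05), *Gab2* (-1.98) and the phosphatase gene *Ptpn6* (-1.51) were lower than in the other Myeloid cells. *Syk* was seen in 22 of the 251 cells with 29 UMIs.

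Of 21 transcription factors, 3 were called higher and 5 lower, where 3.68% and 20.3% of all genes were. Without the 6 cells over 20000 UMIs, 1 was called higher and 6 lower, and of all genes 455 and 2902. Centred on the median of all genes, 4 of the 21 were called higher and 2 lower. *Gata2* had 256, 223, 183 and 224 CPM in M1, M2, M5 and M6, against 2.39 to 6.99 CPM, and was carried by 155 cells. *Tal1* was at 3.84 and *Meis2* at 1.88. *Tal1* had 32 UMIs in the mast cell-like cells and 18 in the other Myeloid cells. It reached the minimum of 50 UMIs only through the group in which it is high. *Gata1*, under the minimum of 50 UMIs, was seen in 18 cells. *Mitf*, a regulator of mast cell and pigment cell genes, was in 38 cells and did not separate the groups, with 21.3 to 40.6 CPM against 17.6 to 36.0. *Spi1*, which macrophages hold at a high level, was at -2.34, and *Zeb2* at -1.58. *Runx1*, *Fos* and *Junb* were called lower too. Of 10 early-response and heat shock genes, *Fos* and *Junb* among them, 6 were called lower and 0 higher (median -1.09). After centring, 2 of the 10 were called lower and 1 higher. In the lipid mediator list, 4 of 12 genes were called higher and 4 lower. Without the 6 cells over 20000 UMIs, 3 were called higher and 5 lower. In the 106 cells without UMIs of other cell types' genes, 2 were called higher and 4 lower, and of all genes 457 and 3944. The leukotriene genes *Alox5* (4.62) and *Ltc4s* (1.80), the prostaglandin D synthase *Hpgds* (2.57) and the constitutive cyclooxygenase *Ptgs1* (1.06) were higher. The inducible cyclooxygenase *Ptgs2* (-2.36), *Pla2g4a* (-2.01), *Hpgd* (at 0 UMIs) and *Plin2* (-3.26) were lower.

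**Figure D4:**
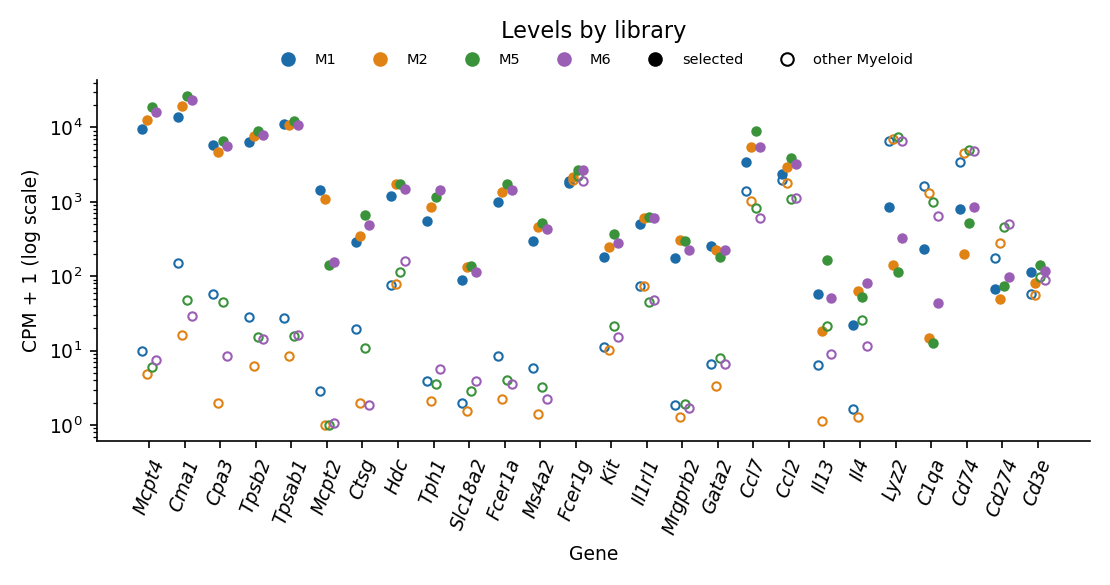
Level (CPM + 1, log scale) of 26 genes in each library (colors), in mast cell-like cells (filled) and other Myeloid cells (open). From *Mcpt4* to *Gata2* the filled points lie above the open ones except for *Fcer1g*, where they mix, and for *Lyz2*, *C1qa*, *Cd74* and *Cd274* they lie below.

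Cytokines and chemokines divided by gene. Of 24 tested, 4 were called higher and 9 lower (median 0.01), where 3.68% and 20.3% of all genes were. The chemokine gene *Ccl7*, which draws monocytes, had 3405, 5460, 8867 and 5444 CPM in M1, M2, M5 and M6, against 1393, 1038, 828 and 608 CPM, and was carried by 227 cells with a median of 20 UMIs. It was among the 15 genes with most UMIs in these cells. *Ccl2*, its neighbor on chromosome 11 and a ligand of the same receptor CCR2, had 2344, 2953, 3843 and 3199 CPM, against 1077 to 1943. Its log2 ratio of 1.09 was 0.87 without M5 and 0.90 without M6, under the 2-fold limit, so that leaving out either library ended its call. For both chemokines the libraries do not overlap, and 220 cells carried both. The type 2 cytokines were found in fewer cells. *Il13* was seen in 38 cells (56.2, 17.4, 165 and 50 CPM in M1, M2, M5 and M6) and *Il4* in 53 (21.3, 62.8, 52.2 and 81.0 CPM), 18 cells carried both and 178 neither. For *Il13* and *Il4* the lowest library of the mast cell-like cells was below the highest of the other Myeloid cells (20.4 and 24.8 CPM), although each was higher within its own library. *Il5* was seen in 1 cell and *Il9* in none. The macrophage and neutrophil products were lower, with *Il1b* at -3.25, *Cxcl2* at -3.04, *Ccl3* at -2.84, *Cxcl1* at -2.07 and *Tnf* at -1.86, and 81.8% of the *Cxcl2* UMIs came from 10 cells. *Il10* was at 0 UMIs, at least 6.29-fold lower when 3 UMIs over the group are allowed.

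Among the 20 genes with the highest ratio, those on no list included *Cyp11a1*, *Serpinb1a*, *Car8*, *Hs6st2*, *Rprm*, *Gnai1* and *Speer4e*. The last 5 of these had 47, 29, 24, 14 and 3 UMIs in the other Myeloid cells. They passed the minimum of 50 UMIs only through the group in which they are high. *Cyp11a1* (chromosome 9, 58006411 to 58027023) makes pregnenolone, the first step of steroid synthesis. It had 568, 649, 1047 and 855 CPM in M1, M2, M5 and M6, against 0.282 to 17.3 CPM, and was carried by 222 cells. *Serpinb1a*, an intracellular inhibitor of neutrophil-type serine proteases, had 1726, 1231, 1743 and 1756 CPM, against 7.88 to 35.8. *Car8*, a carbonic anhydrase-related protein, was at 6.96 on the log2 scale. Of the genes with most UMIs, the histone variant gene *H2afz* was the one outside the mast cell lists that was called higher, with 3252 to 4574 CPM and 1073 to 1166 in the other Myeloid cells.

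The macrophage genes that lead the rest of the label were low in the mast cell-like cells. All 17 macrophage genes were called lower (median -3.55), where 20.3% of all genes were. *Lyz2*, the lysozyme of macrophages and neutrophils, had 859, 139, 113 and 329 CPM in M1, M2, M5 and M6, against 6532 to 7546, and was seen in 39 of the 251 cells. *C1qa*, of the complement component C1q, had 229, 13.9, 11.6 and 42.9 CPM, against 651 to 1630, and was seen in 14 cells. M1, with its cell of 92027 UMIs, was highest for both. The monocyte list (6 of 6 lower, median -2.33), the neutrophil list (6 of 6, -2.26) and the class II antigen presentation list (7 of 7, -2.95) were called lower too, as were 6 of 8 dendritic cell genes. After centring on the median of all genes, 4 of 6 monocyte, 4 of 6 neutrophil, 7 of 7 class II and 5 of 8 dendritic cell genes were called lower. *Ciita*, the master regulator of class II genes, was at 0 UMIs, at least 12.4-fold lower when 3 UMIs over the group are allowed, and *Cd74* had 195 to 841 CPM against 3487 to 4911. The 15 genes with the lowest ratio included *Ccl8* (-5.12), *Nos2* (-4.98), *Slamf8* (-4.72), *Bst1* (-4.69), *F13a1* (-4.62) and *Stab1* (-4.46). Without the 6 cells over 20000 UMIs, the macrophage median was -4.15 with 17 of 17 lower, and 4 of 6 neutrophil genes were called lower, as were 4 of 6 without cells over 10% mitochondrial UMIs.

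**Figure D5:**
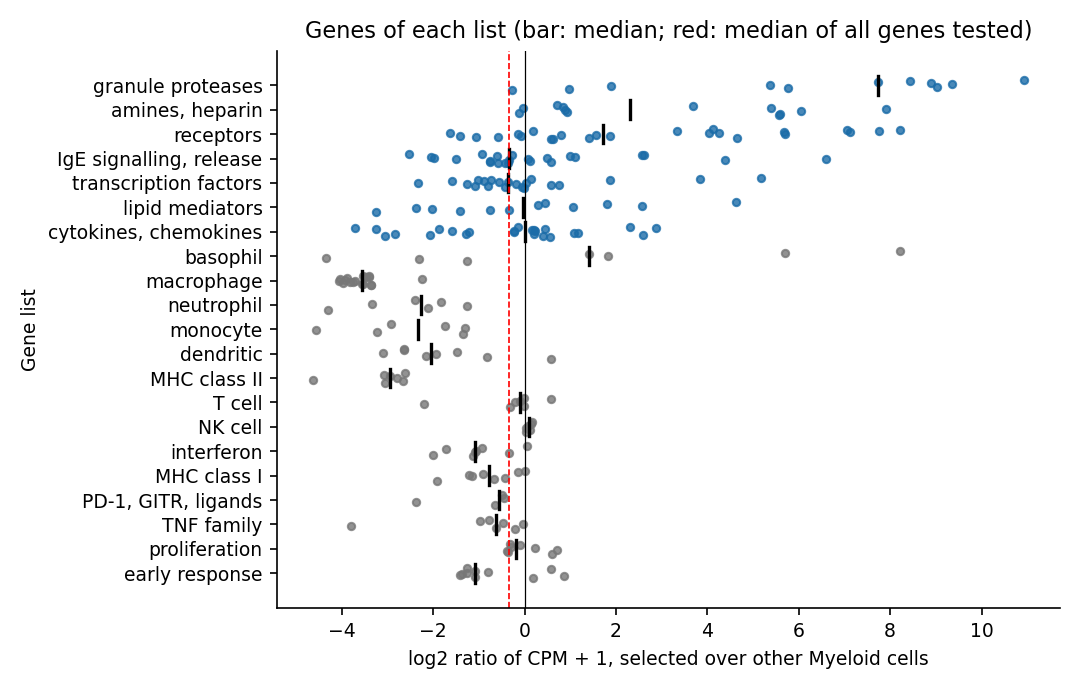
Log2 ratio of CPM + 1, mast cell-like over other Myeloid cells, of each tested gene of the lists named on the axis (points, blue for mast cell lists), with the list's median as a bar and the median of all tested genes (-0.35) as a dashed line. Among the lists drawn, granule proteases, here with *Mcpt4*, have the highest median (7.73), macrophage genes the lowest (-3.55), and the medians of T and NK cell genes lie near 0.

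Transcripts of lymphocytes were found in the mast cell-like cells and in the other Myeloid cells. None of 6 NK cell genes were called, and 1 of 7 T cell genes, *Cd4*, was called lower, with medians of 0.10 and -0.09. Of all genes, 3.68% were called higher and 20.3% lower. Summed over the T cell list, the level was 422 to 899 CPM by library and 432 to 778 in the other Myeloid cells, and no gene of the list was at 0. A CD3 chain UMI was found in 111 of the 251 cells (44.2%) and in 36.2% of the other Myeloid cells, and *Gzma* in 104 cells. These shares are not thinned, and the mast cell-like cells had the lower median depth. The log2 ratio of *Cd3e* was 0.57 in summed UMIs, 1.11 after thinning to 2000 UMIs and 1.12 as a mean of per-cell CPM. The 6 deepest cells held 8.94% of the *Cd3e* UMIs. Free RNA and doublets were not separated here, so their part in these values was not tested. B cell and eosinophil lists summed to at most 9.70 and 7.15 CPM in a library, with *Cd79a*, *Prg2* and *Epx* at 0 UMIs. The endothelial list summed to 3.49 to 31.9 CPM, against 30.8 to 55.6 in the other Myeloid cells, with *Cdh5* at 0. The erythroid and platelet list summed to 0 to 16.7 CPM in M1, M2 and M6 and to 151 CPM in M5, against 205 to 265, with *Hba-a1* at 0. The fibroblast list summed to 207, 143, 23.2 and 186 CPM in M1, M2, M5 and M6, against 264, 192, 78.3 and 107 CPM. None of its 6 tested genes was called, where 3.68% and 20.3% of all genes were. In the 106 cells with no UMI of *Lyz2*, *C1qa*, *C1qb*, *C1qc*, the CD3 chains or *Ncr1*, 7 of 11 protease genes were called higher, against 9 of 11 in all 251 cells, both with *Mcpt4*, whose call the selection fixed. The 9 include *Mcpt2* and *Tpsg1*, which passed the minimum only through the group in which they are high. In the same 106 cells 17 of 17 macrophage genes were called lower, in part fixed by that choice of cells. Of all genes, 457 were called higher and 3944 lower in these cells.

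Of the list of PD-1, GITR and their ligands 1 of 4 tested genes was called lower (median -0.56), and of the TNF family list 1 of 7 (median -0.63), where 20.3% of all genes were. In the 106 cells without UMIs of other cell types' genes, which were chosen to lack CD3 chain UMIs, 4 of 4 (median -2.78) and 5 of 7 (median -2.33) were called lower. The other Myeloid cells were not filtered in this way, so lower values of T cell genes are in part fixed by that choice. Of all genes, 3944 were called lower in this setting, against 2379 in the main comparison. *Pdcd1*, which encodes PD-1, had 27.9 to 66.7 CPM against 50.7 to 72.0 in the other Myeloid cells, and cells labelled T cell EFF had 567 CPM. *Tnfrsf18*, which encodes GITR, had 41.8 to 102 CPM against 55.6 to 114. *Tnfsf18*, the gene of GITR-L, was at 0 UMIs. *Cd274*, which encodes PD-L1, was lower, with 65.9, 48.8, 72.5 and 97.7 CPM in M1, M2, M5 and M6, against 174, 278, 461 and 510 CPM. Of the interferon-response list 5 of 8 genes were called lower (median -1.08) and none higher, and *Isg15* was at 0.05. After centring on the median of all genes, 2 of the 8 were called lower. Of 8 proliferation genes none was called in either direction (median -0.20), while 1 was called higher after centring and 2 (median 0.32) in the 106 cells. Of all genes, 825 were called higher after centring and 457 in the 106 cells. *Mki67* was seen in 41 of the 251 cells.

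Within the 251 cells the connective tissue-type proteases went together. Across cells, the share of UMIs of *Mcpt4* had a Spearman correlation of 0.84 with *Cma1* (0.77 to 0.90 within libraries), 0.80 with *Cpa3* and 0.78 with *Tpsb2*, and *Tpsb2* and *Tpsab1* had 0.83. *Mcpt4* and *Mcpt2* had 0.09 and *Mcpt4* and *Ccl7* 0.11, while *Ccl2* and *Ccl7* had 0.62. These are descriptions over 251 cells that share 4 libraries, differ in depth and divide by the same total, and *Mcpt4* was cut at its limit. Of 11 further mast cell markers (*Cma1*, *Cpa3*, *Kit*, *Tpsb2*, *Tpsab1*, *Hdc*, *Ms4a2*, *Fcer1a*, *Il1rl1*, *Gata2* and *Slc18a2*), the median cell carried 9 and no cell fewer than 5. The median other Myeloid cell carried 1.

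The limit left some like cells out. Under the alternative rule of 2 or more UMIs of both *Cma1* and *Cpa3*, 285 Myeloid cells were found, of which 249 were among the 251. The other 36 lay under the *Mcpt4* limit, 5 of them at 0 *Mcpt4* UMIs, and 1 of these 5 carried 736 *Cma1* UMIs. These 36 cells held 84.2% of the *Cma1* UMIs and 95.0% of the *Cpa3* UMIs of the other Myeloid cells, so the levels of *Cma1* and *Cpa3* given above for that group come largely from them.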

How the data were processed

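The authors made 3′ droplet libraries (10x, v3 chemistry) from bead-enriched CD45+ cells, counted UMIs with Cell Ranger 3.0.2 on GRCm38 (mm10) and kept cells over 500 UMIs. They deposited UMI counts, unnormalized, for every gene and cell, and a label for each cell from its correlation with ImmGen profiles. No doublet removal or correction for free RNA is named in the sources used here, and no doublet caller was run. Each of the 33961 cells had counts that add up to its deposited total.

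With pandas 2.3.3, scipy 1.17.1 and numpy 2.4.6 in Python 3.11.15, counts were added up by group and library and scaled to CPM. Log2 ratios used a pseudocount of 1 CPM. Genes needed 50 UMIs over both groups, and a call needed a 2-fold pooled ratio on the same side in each of the 4 libraries. The calls and the thinning to 2000 UMIs were tested on simulated data. The simulation changed abundant genes only, by more than 2-fold, and drew counting error alone. True changes near the 2-fold limit, in rare genes or in UMIs held by few cells were not covered. Intervals are exact at 95%, and 0 counts allow up to 3. Positions are from GENCODE M21 (98.1% of symbols matched). Named genes were those of the lists, the 20 highest and 15 lowest ratios and the 15 genes with most UMIs, without mitochondrial and ribosomal protein genes. *Cd244a* has no entry under that symbol. Members and lists were chosen with earlier results of these data known. Alternatives changed the limit, pseudocount, filter, weighting, cells or libraries. The libraries could not be assigned to treatment groups, so no test was run.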

Additional observations from a re-analysis of the deposited data

Results flagged for a closer look

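Of the cells under labels other than Myeloid, 27 also held 10 or more *Mcpt4* UMIs, and these were outside the comparison of the report. They were 17 cells labelled ILC, 3 T cell MEM, 3 Stroma, 2 T cell EFF, 1 NK cells and 1 NKT, and the libraries M1, M2, M5 and M6 held 11, 4, 6 and 6 of them. All 27 carried *Cma1*, *Cpa3* and *Tpsb2*, and 17 carried *Kit*. Their median depth was 13019 UMIs against 4516 in the mast cell-like Myeloid cells, and their median share of UMIs in the 5 proteases was 1.68% against 6.60%. A UMI of a CD3 chain or *Ncr1* was found in 25 of the 27, and in 127 of the 251. Whether these are doublets was not tested.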

How the results depend on the processing

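The number and share of selected cells moved with the rule. There were 161 cells (6.01%) at 50 or more *Mcpt4* UMIs, 212 (7.91%) at 20 or more, 285 (10.6%) by *Cma1* and *Cpa3*, and 155 (6.93%) without cells over 10% mitochondrial UMIs. By an alternative chosen after seeing the data, 106 cells had no UMI of the other types' genes. Leaving out one library at a time gave 179 to 198 cells, 8.93% to 10.1% of Myeloid cells, 405 to 483 higher genes and 2293 to 3034 lower genes. With a pseudocount of 10 CPM, 279 genes were higher and 971 lower. Among alternatives chosen after seeing the data, a filter of 500 UMIs gave 208 and 1473, centring on the median of all genes 825 and 1486, and leaving out cells with other types' UMIs 3944 lower genes, with the CD3 chains, *Ncr1*, *Lyz2* and the C1q genes fixed by that choice. Of 336 log2 ratios recomputed for 21 genes under 16 settings, 157 stayed within the exact counting interval of the reported value and 179 did not. *Hdc* went from 3.69 to 2.39 as a mean of per-cell CPM, *Il13* from 2.88 to 1.73 after thinning and *C1qa* from -3.53 to -5.16 without M1. The cause was not tested. The sign held in 335, and *Cd3e* went from 0.57 to -6.28 in the cells chosen to lack it. No paired analysis was possible because the treatment groups that share replicate numbers could not be compared. The contrast of cells was read within each library by the call rule. At 1566973 UMIs, a gene at 0 in the mast cell-like cells may lie at up to 1.91 CPM.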

Other observations

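*Cma1* was not limited to cells with *Mcpt4*. After thinning to 2000 UMIs, 7.66% of cells labelled NK cells carried a *Cma1* UMI, against 2.56% of the other Myeloid cells, while 0.474% of NK cells carried *Mcpt4*. In the 4397 NK cells under the *Mcpt4* limit there were 1018 *Cma1* UMIs and 59 *Mcpt4* UMIs, or 17.3 *Cma1* UMIs per *Mcpt4* UMI (exact 95% interval 13.3 to 22.8, counting error only). By library (M1, M2, M5, M6) the ratio was 24.1, 14.5, 15.5 and 17.5. In the 251 mast cell-like cells it was 1.44 (1.41 to 1.46). Under the limit it was 9.36 in the other Myeloid cells (17.3 in M1, 4.0 in M2, 9.34 in M5, 4.34 in M6), 6.80 (5.52 to 8.46) in ILC, 6.75 (2.35 to 26.5, from 4 *Mcpt4* UMIs) in NKT and 2.01 (1.73 to 2.34) in Stroma cells, so a ratio above that of the mast cell-like cells was not particular to NK cells. By its construction the limit leaves out the cells highest in *Mcpt4*, 1 of them labelled NK cells, which lowers *Mcpt4* in the cells under it. With that 1 cell, NK cells had 2.81 CPM of *Mcpt4* and 27.1 of *Cma1*. Without it they had 1.49 and 25.7 CPM. The ratios of cells under the limit are thus in part set by the rule, and their intervals do not cover this. *Cpa3* per *Mcpt4* UMI was 1.66 in the NK cells and 0.411 in the mast cell-like cells.

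The basophil protease gene *Mcpt8* had 30.6 CPM in the 251 mast cell-like cells, 8 of which carried it. In the 2429 other Myeloid cells it had 7.96 CPM. Of the other Myeloid cells, 20 held 2 or more *Mcpt8* UMIs, with up to 78 in a cell, and 19 of the 20 were at 0 *Mcpt4* UMIs. *Cpa3* was carried by 9 of them. Of the 37 cells labelled Stem cells, the 7 in M5 held all 82 *Cpa3* UMIs of that label, and the cells of the other libraries held 0. Of the 254 *Mcpt1* UMIs in the other Myeloid cells of M5, a single cell held 233.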
